A study of Mus musculus with 17 samples.

Results

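The stress hormone signalling genes examined here were Crh, Crhbp, Crhr1, Crhr2, Nr3c1, Nr3c2, Fkbp5 and Sgk1, 8 genes that carry the corticotropin-releasing hormone and corticosteroid signals. Chromatin accessibility was read from the ATAC-seq peaks that overlapped their gene bodies or the 10 kb on either side (mm10 coordinates, GENCODE M21 gene models). After regions called in at least 2 libraries of one group had been kept, 107 of the 147420 regions of the series belonged to these genes. They were left from 236 member regions before that filter, so 129 were not kept, and no count below covers those.

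The libraries came from neuronal (NeuN+) nuclei of the nucleus accumbens of C57BL/6 mice (C57BL/6J in the study's methods), sorted by flow cytometry. Diestrus females, proestrus females and males, 52 to 54 days old, were killed 1 h after an intraperitoneal injection of 10 mg/kg cocaine or taken as controls without cocaine. Diestrus is the low-estrogen, high-progesterone stage and proestrus the high-estrogen, low-progesterone stage of the estrous cycle. Each of the 17 libraries pooled 3 animals: there were 3 libraries a group, with and without cocaine, except for males after cocaine, which had 2. The controls had no injection of vehicle named in the descriptions, so cocaine and the injection itself cannot be told apart, and no genetic change was carried by any group. A library of pooled nuclei gives one value, and a smaller share of nuclei open at a site and a less open site in each nucleus cannot be told apart.

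Corticotropin-releasing hormone, the product of Crh, starts the hormonal stress response from the hypothalamus and also acts as a local transmitter in the brain. It acts on the receptors CRHR1 and CRHR2, and the CRH-binding protein (Crhbp) sequesters it. The adrenal corticosteroids that follow bind the glucocorticoid receptor (Nr3c1) and the higher-affinity mineralocorticoid receptor (Nr3c2), FKBP5 is a cochaperone that lowers the receptor's affinity for hormone, and Fkbp5 and Sgk1, a serum- and glucocorticoid-regulated kinase, are both induced by glucocorticoids. In the nucleus accumbens these signals are known to shape responses to stress and to drugs.

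The sequences around 6 accessible regions are shown first because the enrichment results turn on 5 of them and because the other, in an intron of Crhbp, shared a motif with one of the 5. Each run covers the bases around the median summit, on the + strand of GRCm38 (mm10, RefSeq). Capitals mark an AP-1 motif (TGACTCA or TGAGTCA, the site of Fos and Jun dimers) in the Crhbp runs and a glucocorticoid response element (GNACA and TGTNC separated by 3 bases) in the Fkbp5 upstream run, and the other runs held no motif of those searched.
Crhbp downstream region, chr13:95425064-95425264: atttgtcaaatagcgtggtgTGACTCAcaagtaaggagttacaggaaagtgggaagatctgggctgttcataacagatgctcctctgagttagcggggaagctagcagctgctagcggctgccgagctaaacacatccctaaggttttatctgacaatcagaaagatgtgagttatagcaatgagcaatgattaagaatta
Crhbp intronic region, chr13:95439648-95439848: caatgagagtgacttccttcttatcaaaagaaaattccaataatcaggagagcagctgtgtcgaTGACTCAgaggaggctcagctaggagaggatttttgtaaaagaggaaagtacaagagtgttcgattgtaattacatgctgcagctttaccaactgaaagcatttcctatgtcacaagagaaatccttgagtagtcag
Crhr1 intronic region, chr11:104171465-104171665: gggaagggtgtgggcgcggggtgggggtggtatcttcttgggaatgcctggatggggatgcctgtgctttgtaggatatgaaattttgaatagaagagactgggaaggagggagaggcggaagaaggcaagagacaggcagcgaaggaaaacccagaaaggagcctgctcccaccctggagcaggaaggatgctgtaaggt
Nr3c2 promoter region, chr8:76902033-76902233: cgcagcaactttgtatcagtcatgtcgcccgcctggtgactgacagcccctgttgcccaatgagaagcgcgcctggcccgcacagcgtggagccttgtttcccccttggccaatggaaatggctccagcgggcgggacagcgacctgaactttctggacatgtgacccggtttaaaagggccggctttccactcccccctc
Fkbp5 internal promoter region, chr17:28486150-28486274: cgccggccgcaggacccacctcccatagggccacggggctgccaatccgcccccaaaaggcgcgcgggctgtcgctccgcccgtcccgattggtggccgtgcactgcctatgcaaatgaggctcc
Fkbp5 upstream region, chr17:28523007-28523207: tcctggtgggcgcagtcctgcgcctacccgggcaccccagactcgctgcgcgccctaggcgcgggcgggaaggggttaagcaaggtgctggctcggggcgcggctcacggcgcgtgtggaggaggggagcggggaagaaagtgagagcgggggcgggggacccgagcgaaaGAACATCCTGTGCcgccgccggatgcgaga

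The libraries held 75458 to 157005 peaks, and the 2 male cocaine libraries had the fewest kept regions called. Promoters of all 4 pan-neuronal markers and all 8 medium spiny neuron markers were called in every library, whereas Mog, Mag, Mobp, Opalin, Cx3cr1, Tmem119, Slc1a3, Gja1, Cldn5, Flt1 and Cdh5 promoters were called in none. Other glial and vascular markers were called: 1 of 6 oligodendrocyte promoters in every library, 1 to 3 of 5 microglial, 0 to 2 of 5 astrocyte and 0 to 1 of 4 endothelial promoters. Of 6 markers of cortical excitatory neurons, which adjoining tissue could supply, 6 promoters were called in the male controls, 2 in the male cocaine libraries, 1 to 3 in the diestrus controls, 3 in the diestrus cocaine libraries, 4 in the proestrus controls and 3 to 5 in the proestrus cocaine libraries. The 1 of these promoters called in all libraries had a mean centred log2 enrichment of 0.97 in the diestrus controls and 0.39 after cocaine, 0.71 and 0.28 in proestrus, and 0.86 and 0.70 in males. The 8 medium spiny neuron promoters had means of 0.57 in the diestrus controls and 0.78 after cocaine. Their means were 0.80 and 0.68 in proestrus, and 0.32 and 0.59 in males. The oligodendrocyte promoter called in all libraries had 0.44 and 0.77, 0.60 and 0.52, and 0.59 and 0.90, in that order. Of 6 interneuron promoters 1 to 2 were called, and those of Sst, Npy, Chat and Vip in no library. The part of these markers in the results below was not tested. An Xist promoter peak was present in 12 of 12 female and 0 of 5 male libraries. Diestrus cocaine library 1 shared more of its regions with the diestrus controls (mean Jaccard index 0.719) than with its own group (0.625), and diestrus cocaine libraries 2 and 3 and proestrus cocaine library 2 were slightly nearer to the cocaine group of the other stage. The stage of diestrus cocaine library 2 is given by its title alone. Diestrus differences past the threshold with all libraries are therefore given without library 1 and without library 2 as well. Those past it only without library 1 are given without that library alone. Leaving library 1 out raised the share of all regions changed in diestrus from 11.2% to 27.4%. It was singled out for its likeness to the controls, so values without it are a description and add no support for a change. Without library 2, and likewise without library 3, no member region passed the threshold in diestrus.

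Of the 107 member regions, 11 lay within 1 kb of a transcript start, 76 in introns, 5 over exons, 6 upstream and 9 downstream. Sgk1 was the most densely covered gene, with 36 regions (26.1 per 100 kb of gene and flanks), followed in number by Nr3c2 with 26, Nr3c1 with 17, Fkbp5 with 11, Crhr1 with 7, Crhr2 with 5, Crhbp with 3 and Crh with 2. The other 7 genes held 7.11 to 13.2 regions per 100 kb. All 17 libraries called 24 of the member regions (22.4%), against 36847 of all kept regions (25.0%). Another 24 were called in 1 to 3 libraries. Crhbp was the one gene with no kept region at a transcript start.

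**Figure D1:**
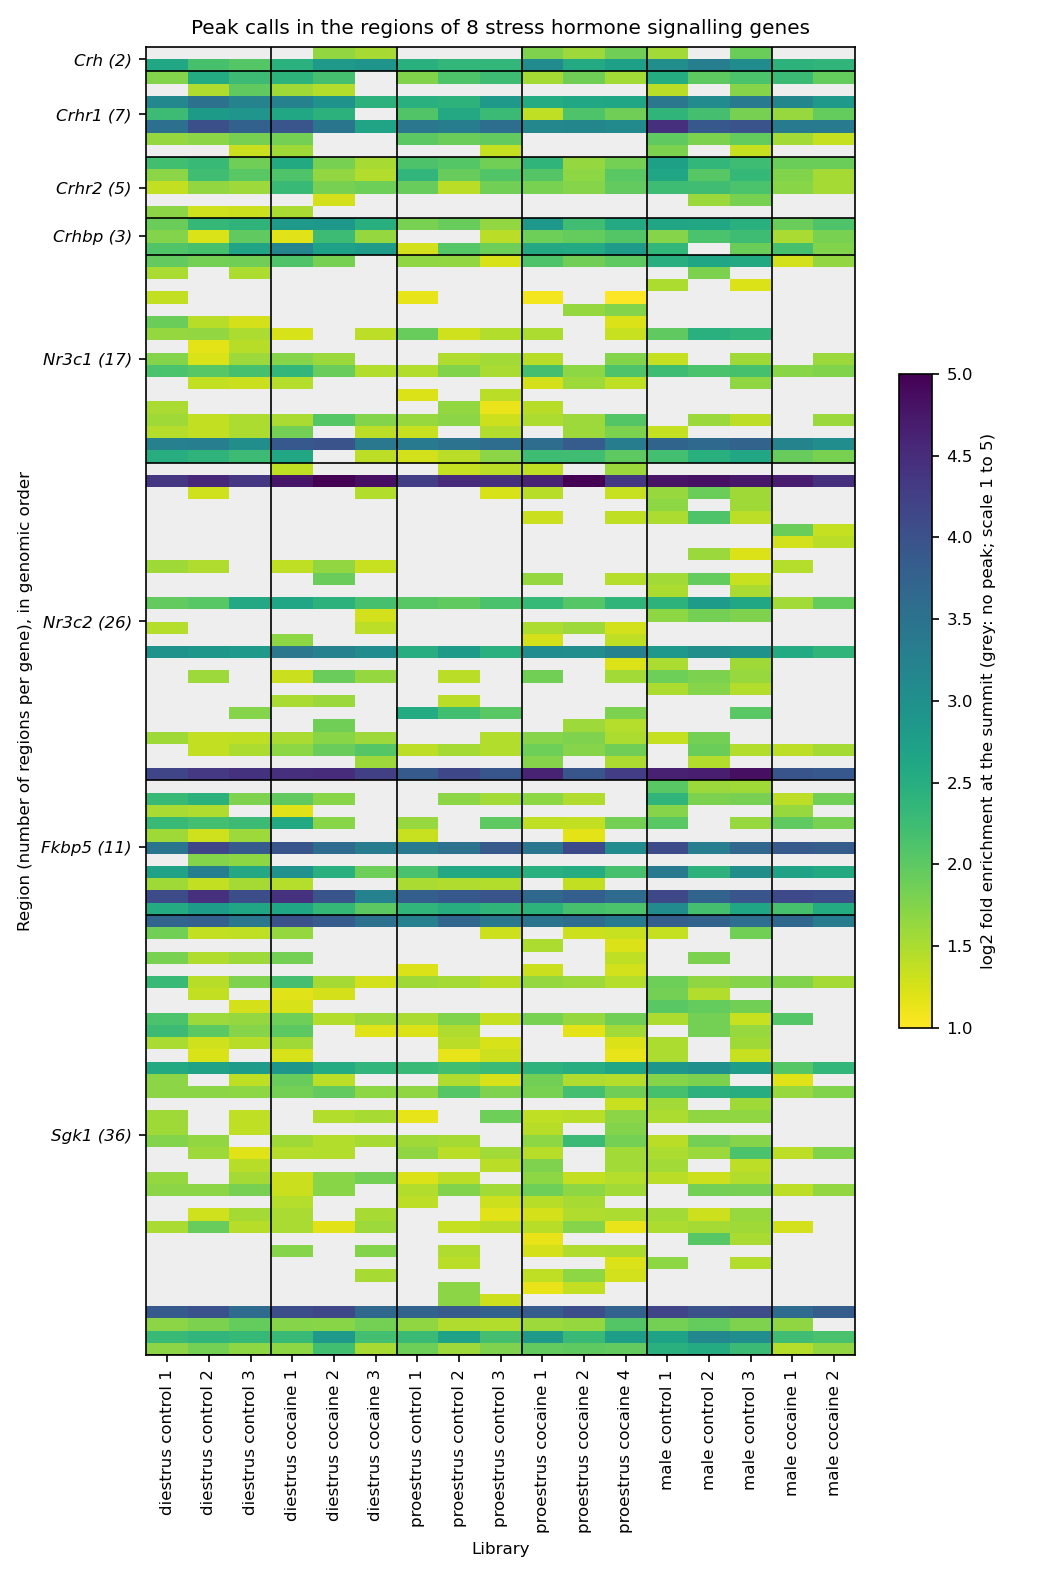
Calls of the 107 member regions (rows, grouped by gene) in each of the 17 libraries (columns, grouped by sex, estrous stage and treatment). A filled cell is a called peak; 24 rows are filled across all libraries and 24 rows in 1 to 3 libraries.

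Fewer member regions were called in males after cocaine than without it, a difference that was not seen at equal peak numbers. Diestrus controls called 61 to 66 and diestrus cocaine libraries 49, 53 and 68. Proestrus controls called 50 to 60 and proestrus cocaine libraries 58 to 76. Male controls called 61 to 73 and male cocaine libraries 40 and 44. Over the whole series the male controls called 95207 to 104227 kept regions and the male cocaine libraries 54023 and 61973, so that per 10000 regions called the members made up 6.41 to 7.004 in the controls and 7.10 and 7.40 after cocaine. The means differed by -7.00, 12 and -25.7 regions after cocaine in diestrus, proestrus and males. When every library was cut to its 75458 strongest peaks, the differences became 0.333, 9 and 0.5. At that equal number the proestrus cocaine libraries called 41 to 46 and the proestrus controls 33 to 36, without overlap, whereas in diestrus and in males the treatments overlapped. All kept regions called in proestrus moved the same way, from 54602 to 57102 in the controls to 57218 to 61084 after cocaine, and per 10000 of them the members made up 5.78 to 6.59 and 6.71 to 7.75. With 3 libraries against 3 the smallest two-sided exact permutation p is 0.1, so no test was made.

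**Figure D2:**
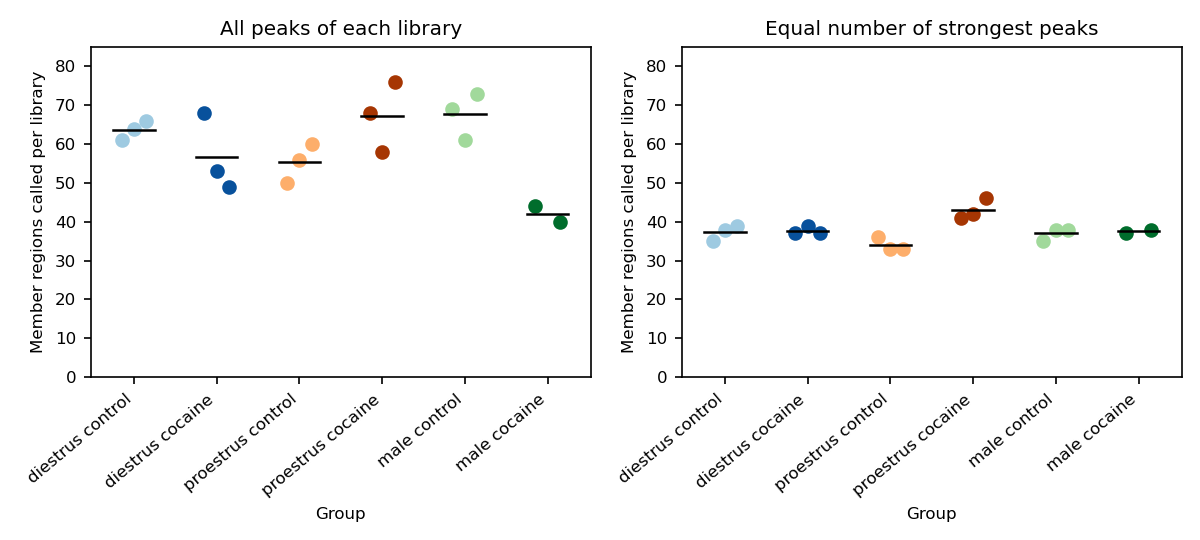
Member regions called per library, with all peaks (one panel) and with the same number of strongest peaks in every library (the other panel); points are libraries, grouped by sex, stage and treatment. The male cocaine libraries lie lowest with all peaks (40 and 44) and among the other groups at equal peak number (37 and 38).

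Few member regions were present in one treatment and absent from the other within a sex or stage. In diestrus none was gained (called in every cocaine and no control library; 1.16% of all regions were) and 2 were lost (1.26% of all regions). In proestrus 4 were gained (2.45% of all regions) and 1 was lost (1.64%). In males 2 were gained (1.66%) and 13 were lost (16.8%), which is 12.1% of the member regions. Some gained or lost regions passed the filter only through the group that called them, so their absence from other groups is no support for a change. At equal peak number 2 of the 13 male losses, 1 of the 2 male gains, 1 of the 4 proestrus gains, the proestrus loss and 0 of the 2 diestrus losses remained separated. Counted afresh at equal peak number, where 60 member regions were kept, diestrus had 0 gained (1.57% of all regions) and 0 lost (1.21%), proestrus 4 gained (2.38%) and 1 lost (1.40%), and males 2 gained (4.14%) and 2 lost (9.37%).

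Across all 17 libraries no member region was called more or less often after cocaine at an adjusted p under 0.05. Fisher's exact test (two-sided, 8 cocaine against 9 control libraries, Benjamini-Hochberg over 64304 regions) called 0 regions of the series, 0% of them, with a smallest adjusted p of 0.145. At an unadjusted p under 0.05 it passed 13% of all regions and 4 of the 44 member regions tested, 2 more often and 2 less often called after cocaine. The 2 less often called were a Crhr1 region past the 3′ end (3 of 8 cocaine against 9 of 9 control libraries, exact p = 0.00905, adjusted p = 0.273) and an Nr3c1 intronic region (4 of 8 against 9 of 9, exact p = 0.0294, adjusted p = 0.321). The 2 more often called were Sgk1 intronic regions, chr10:21983404-21983891 (4 of 8 against 0 of 9, exact p = 0.0294, adjusted p = 0.321) and chr10:21968394-21969106 (5 of 8 against 1 of 9, exact p = 0.0498, adjusted p = 0.382).

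The height of the peaks was compared in the 24 member regions called in all 17 libraries. Summit fold enrichment is the pileup at the summit over the library's own background, and each library's log2 values were centred on their median. Differences below are on that log2 scale with their standard errors, from limma with Benjamini-Hochberg adjustment over 36847 regions. Where overlap between groups is described, it rests on the same values as the test, and its share over all regions is not given. Cocaine changed 2 of the 24 in diestrus, both higher (11.2% of all regions changed), 1 in proestrus, higher (3.38% of all), and 2 in males, both higher (9.60% of all). The mean over the 3 strata changed for 3 of 24, 2 higher and 1 lower (13.9% of all). The cocaine effect differed between males and females for 3, higher in males for 2 and lower for 1 (18.4% of all). It differed between diestrus and proestrus for 0 of the 24 (0.00543% of all regions; 2 of 24 at an unadjusted p under 0.05). In each comparison the share of member regions changed was below or near that of all regions. The median difference of the members was 0.06 in diestrus, -0.01 in proestrus and -0.07 in males, against 0.01, -0.02 and 0.09 over all regions.

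These counts depended on the centring. Without it the median of all regions moved to -0.40 in males after cocaine and to -0.48 in the male minus female difference of effects, and 12 of 24 member regions were lower in each, while 12210 and 13998 of all 36847 regions were called, 12096 and 13822 of them lower. Of all regions called, 58.1% were higher in males with centring, 0.934% without it and 40.6% after quantile normalization, and for the male minus female difference 64.5%, 1.26% and 49.6%. In diestrus 55.6% were higher with centring and 76.9% without, in proestrus 46.4% and 95.9%, and for the mean 57.5% and 13.1%. Changes are therefore given relative to the median region of each library. Without diestrus cocaine library 1 the diestrus comparison changed 8 of 24 member regions, 4 higher and 4 lower (27.4% of all regions). Without diestrus cocaine library 2 it changed 0 (0.972% of all regions), and without diestrus cocaine library 3 also 0 (0.912% of all regions).

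**Figure D3:**
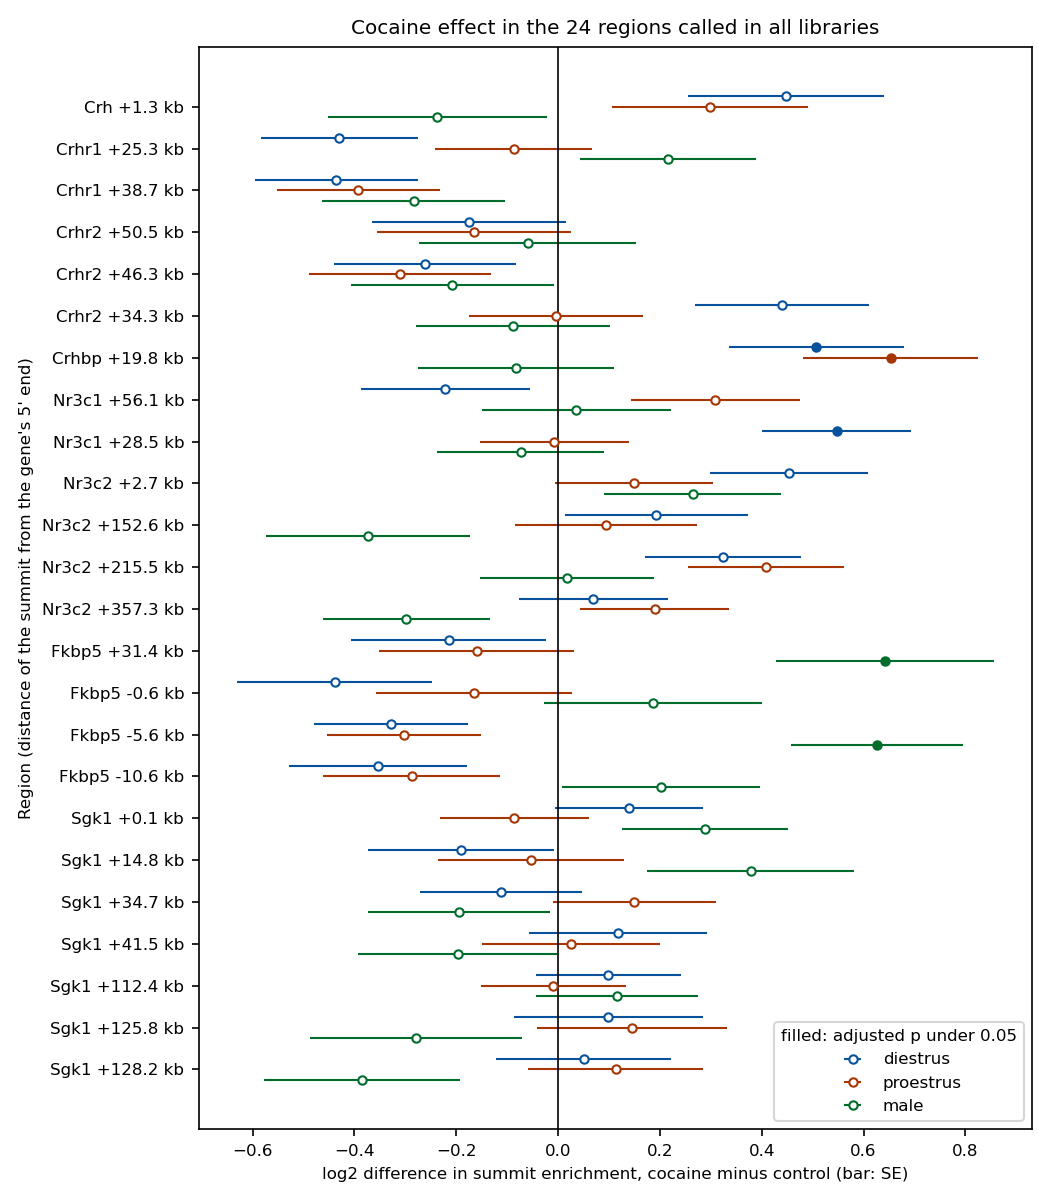
Cocaine minus control difference in centred log2 summit enrichment (x axis) for each of the 24 member regions called in all 17 libraries (rows), in diestrus, proestrus and males; bars are standard errors and filled points have an adjusted p under 0.05. Filled points are the Crhbp downstream region in diestrus (0.51) and proestrus (0.65), the Nr3c1 promoter region in diestrus (0.55) and 2 Fkbp5 regions in males (0.64 and 0.63).

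Crh, the gene of the hormone itself, lies on the minus strand of chr3 (19693401-19695396) and had 2 kept regions. The region chr3:19693730-19694535, over the gene within 1 kb of its start, was called in all 17 libraries. Its summit enrichment was 6.07, 4.47 and 4.15 in the diestrus controls and 5.46, 7.17 and 7.58 in the diestrus cocaine libraries. It was 5.49, 5.11 and 5.12 in the proestrus controls and 8.41, 5.88 and 6.70 in the proestrus cocaine libraries. It was 8.16, 9.78 and 8.34 in the male controls and 5.36 and 5.23 in the male cocaine libraries. Before centring the male controls had the highest mean (8.76), though proestrus cocaine library 1 exceeded male control libraries 1 and 3. On the centred scale their mean was 0.19, against 0.15 in the proestrus cocaine libraries, and the highest library was diestrus cocaine library 3 (0.49). The median over libraries exceeded that of 45.7% of the regions called in all libraries. The cocaine differences were 0.45 ± 0.19 in diestrus (adjusted p = 0.117), 0.30 ± 0.19 in proestrus (adjusted p = 0.378) and -0.24 ± 0.22 in males (adjusted p = 0.505), none past the threshold. Without diestrus cocaine library 1, singled out for its likeness to the controls, the diestrus difference was 0.71 ± 0.19 (adjusted p = 0.00506).

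The second Crh region, chr3:19691305-19691815, 1.83 kb past the 3′ end and over Trim55, was gained in proestrus. It was called in 0 of 3 proestrus controls and 3 of 3 proestrus cocaine libraries, with folds of 3.41, 2.99 and 3.67. It was also called in 2 of 3 diestrus cocaine libraries (3.15 and 2.87), in 2 of 3 male controls (2.93 and 3.73), and in no diestrus control or male cocaine library. It stayed separated in proestrus at equal peak number. The peak was thus called in 5 of 6 female libraries after cocaine and in 0 of 6 female controls. That split pools the stages at a region already gained in proestrus, so it adds no support for a change. Its share over all regions is not given. With males included, Fisher's exact test of cocaine against control gave p = 0.153 for this region (adjusted p = 0.511).

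Crhbp, which encodes the protein that binds and sequesters the hormone, lies on the minus strand of chr13 (95431371-95444924). Its 3 kept regions were intergenic or intronic, and the downstream one rose after cocaine in both female stages. That region, chr13:95424854-95426080, lies 6.21 kb past the 3′ end and holds the AP-1 motif printed above. Its enrichment was 3.74, 5.02 and 5.29 in the diestrus controls and 7.24, 7.30 and 5.63 in the diestrus cocaine libraries. In proestrus it was 3.48, 3.83 and 3.13 in controls and 7.31, 4.71 and 5.86 after cocaine. In males it was 6.25, 6.06 and 5.49 in controls and 3.72 and 4.30 after cocaine. On the centred scale the treatments did not overlap in either female stage and overlapped in males.

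The Crhbp downstream region rose by 0.51 ± 0.17 in diestrus (adjusted p = 0.0488), a 1.42-fold change, and by 0.65 ± 0.17 in proestrus (adjusted p = 0.0287), a 1.57-fold change. In males the difference was -0.08 ± 0.19 (adjusted p = 0.818), and the mean over strata was 0.36 ± 0.10 (adjusted p = 0.0169). That mean was 0.31 without male cocaine library 2, a fit that left males 1 cocaine library and in which the call was lost. Without centring the mean was 0.24 and not past the threshold (adjusted p = 0.192). The male effect minus the female effect was -0.66 ± 0.23 (adjusted p = 0.038). The diestrus call was near the threshold: it remained when 3 of the 17 libraries were left out one at a time and was lost without any of the other 14, with differences of 0.38 to 0.59, and it remained in 4 of 9 other settings, with adjusted p of 0.0475 to 0.126 over the 9. The proestrus call remained in 12 of the 17 fits, with differences of 0.53 to 0.80, and each loss came from leaving out a proestrus library. The diestrus difference was 0.56 ± 0.19 without diestrus cocaine library 1 (adjusted p = 0.0222) and 0.49 ± 0.20 without library 2 (adjusted p = 0.162).

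The Crhbp intronic region chr13:95439449-95439937, which holds an AP-1 motif as well, was called in 1 of 3 proestrus controls and 3 of 3 proestrus cocaine libraries. In the other groups every library called it. Its folds were 2.26 to 4.78, and it lies 5.18 kb inside the gene. The upstream region chr13:95450456-95451388 was called in 16 libraries at folds of 2.43 to 9.02, with 9.02, 6.54 and 7.01 in the diestrus cocaine libraries against 4.26, 4.47 and 6.33 in the diestrus controls. Neither was tested for height because at least 1 library did not call it.

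Crhr1, the main receptor for the hormone in the brain, lies on the plus strand of chr11 (104132855-104175523). A region in its body lost height after cocaine. The intronic region chr11:104170565-104172310, 38.7 kb from the start and 3.96 kb before the 3′ end, had enrichments of 11.6, 16.2 and 13.5 in the diestrus controls and 15.4, 10.9 and 6.32 in the diestrus cocaine libraries. In proestrus it was 10.7, 9.98 and 11.8 in controls and 8.91, 8.98 and 8.59 after cocaine. In males it was 22.1, 14.9 and 15.7 in controls and 10.2 and 10.1 after cocaine. On the centred scale cocaine libraries were below all controls in proestrus and in males, and overlapped them in diestrus through library 1.

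The mean difference over strata at the Crhr1 intronic region was -0.37 ± 0.10 (adjusted p = 0.00867), a fold change of 0.773. The single strata gave -0.44 ± 0.16 in diestrus (adjusted p = 0.0676), -0.39 ± 0.16 in proestrus (adjusted p = 0.152) and -0.28 ± 0.18 in males (adjusted p = 0.314). The mean passed the threshold in all 17 fits that left out a library and in all 9 other settings tried. Among these 9, the settings limited to the groups compared repeat the main fit, because the mean uses every group. The replicate block is nearly the same fit (consensus correlation -0.000778). Without diestrus cocaine library 1 the diestrus difference was -0.62 ± 0.16 (adjusted p = 0.0041). The male effect minus the female effect was 0.13 ± 0.21 (adjusted p = 0.698). The cortical excitatory promoter called in all libraries was also lower on average after cocaine in each stratum. The number called of the 6 in that list did not fall in each: it was 1 to 3 in diestrus controls and 3 after cocaine. In proestrus it was 4 and 3 to 5, and in males 6 and 2. The part of these markers in the result was not tested.

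The region past the 3′ end of Crhr1, chr11:104175960-104176617, was lost in proestrus. It was called in all 9 control libraries, at folds of 3.10 to 4.01, in 0 of 3 proestrus cocaine libraries, in diestrus cocaine library 1 alone of that group (3.56) and in both male cocaine libraries (2.95 and 2.56). It stayed separated in proestrus at equal peak number. The other intronic region called in all libraries, chr11:104157338-104159029, differed by -0.43 ± 0.16 in diestrus (adjusted p = 0.0633) and, without diestrus cocaine library 1, by -0.50 ± 0.17 (adjusted p = 0.0218). The promoter region chr11:104131267-104134156 was called in 16 libraries at folds of 2.90 to 5.81, diestrus cocaine library 3 being the one without it.

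Crhr2, the second receptor, lies on the minus strand of chr6 (55090049-55133016) and had low peaks. None of its 5 regions was gained or lost, and none of the 3 tested changed with cocaine in any stratum. The region at a transcript start, chr6:55117765-55118154, was called in 3 of 17 libraries. The region chr6:55097916-55099103, over an exon, had folds of 2.58 to 4.87, and the 2 regions downstream of the gene, chr6:55080976-55083048 and chr6:55086365-55087031, had median folds of 4.18 and 4.08, above 16.1% and 14.2% of the regions called in all libraries. At the exonic region the differences were 0.44 ± 0.17 in diestrus (adjusted p = 0.0827), 0.00 ± 0.17 in proestrus and -0.09 ± 0.19 in males.

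Nr3c1, the glucocorticoid receptor gene, lies on the minus strand of chr18 (39410545-39519421). Its promoter region chr18:39484392-39492817 rose after cocaine in diestrus. Enrichment was 9.55, 9.83 and 8.09 in the diestrus controls and 14.8, 15.7 and 10.6 in the diestrus cocaine libraries. In proestrus it was 10.4, 11.1 and 11.9 in controls and 11.8, 14.2 and 9.95 after cocaine. In males it was 13.1, 12.4 and 13.2 in controls and 9.29 and 8.25 after cocaine. As printed, both male cocaine libraries and the 3 diestrus controls were lowest, and on the centred scale the diestrus controls lay below every diestrus cocaine library.

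The diestrus difference at the Nr3c1 promoter was 0.55 ± 0.15 (adjusted p = 0.0159), a 1.46-fold change, against -0.01 ± 0.15 in proestrus (adjusted p = 0.984) and -0.07 ± 0.16 in males (adjusted p = 0.809). It did not pass without centring (0.57, adjusted p = 0.0846) or with only the compared groups fitted (0.55, adjusted p = 0.0571). Centred means were 0.45 in the diestrus controls and 0.99 after cocaine, 0.94 and 0.93 in proestrus, and 0.76 and 0.68 in males. The difference between the diestrus and proestrus effects was 0.55 ± 0.21 (adjusted p = 0.722) and was not past the threshold. The call was lost without diestrus control library 3, diestrus cocaine library 2 (0.49 ± 0.17, adjusted p = 0.111) or diestrus cocaine library 3, and without diestrus cocaine library 1 the difference was 0.59 ± 0.16 (adjusted p = 0.00483). The merged region is 8.43 kb wide and holds several starts, and 8 of 17 libraries had their strongest summit within 250 bp of the median summit. The next most enriched Nr3c1 region, chr18:39526438-39527308, lay upstream, was called in 16 libraries and had a median fold of 4.65. Among the other Nr3c1 regions, the intronic region chr18:39452656-39453286 was lost in diestrus (called in 3 of 3 controls at 2.39 to 3.74 and 0 of 3 cocaine libraries), chr18:39453554-39455155 was lost in males and chr18:39468152-39469784 was gained in proestrus. Of these, the male loss stayed separated at equal peak number.

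Nr3c2, the mineralocorticoid receptor gene, lies on the plus strand of chr8 (76899442-77245012), and its promoter was the most enriched of all member regions. At chr8:76896812-76903386, which also overlaps Gm10649, the median fold was 24.5, above 95.1% of the regions called in all libraries. Enrichment was 20.7, 23.2 and 20.6 in the diestrus controls and 27.4, 33.6 and 28.6 in the diestrus cocaine libraries. In proestrus it was 19.3, 22.7 and 22.0 in controls and 24.5, 32.8 and 20.3 after cocaine. In males it was 27.5, 28.2 and 26.7 in controls and 25.6 and 21.7 after cocaine. The uncentred male values were lower after cocaine and the centred ones higher, and the median region of the male cocaine libraries was lower as well.

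The mean difference at the Nr3c2 promoter was 0.29 ± 0.09 (adjusted p = 0.0337). The strata gave 0.45 ± 0.16 in diestrus (adjusted p = 0.0511), 0.15 ± 0.16 in proestrus (adjusted p = 0.613) and 0.26 ± 0.17 in males (adjusted p = 0.336). The mean remained past the threshold in 7 of the 17 fits that left out 1 library, and without centring it was 0.17 (adjusted p = 0.323). Without diestrus cocaine library 1 the diestrus difference was 0.63 ± 0.16 (adjusted p = 0.00305). The next most enriched region in the window, chr8:77254942-77258701, overlaps Arhgap10, its summit 11.7 kb past the 3′ end of Nr3c2. It had a median fold of 19.4, and its mean difference was -0.01 ± 0.09 (adjusted p = 0.94).

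Inside Nr3c2 the calls that separated the treatments were mostly male losses at low folds. The 6 regions lost in males, at starts 76915167, 76941560, 77005650, 77085769, 77187124 and 77189349, had median folds of 2.63 to 3.30 and none stayed separated at equal peak number. The 2 gained in males, at 76954836 and 76966839, passed the filter only through the male cocaine libraries, so their absence elsewhere is no support for a change. Their median folds were 3.14 and 2.54, and the first of them stayed separated at equal peak number. The region gained in proestrus, at 77101167, was called at 2.80, 2.99 and 2.41 in the 3 cocaine libraries and also in 1 diestrus control and 1 diestrus cocaine library.

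Fkbp5, the cochaperone that is itself induced by glucocorticoids, lies on the minus strand of chr17 (28399094-28517527). In males 2 of its regions rose after cocaine, whereas in females the differences at both were negative and did not pass the threshold. The upstream region chr17:28520559-28525322, its summit 5.58 kb before the start, overlaps the noncoding genes E230001N04Rik and Gm20109 and holds the glucocorticoid response element printed above. Its enrichment was 17.6, 13.2 and 15.4 in the male controls and 17.4 and 16.4 in the male cocaine libraries. In diestrus it was 16.9, 21.8 and 16.4 in controls and 21.6, 15.6 and 9.42 after cocaine. In proestrus it was 13.8, 14.9 and 15.6 in controls and 12.6, 13.9 and 12.2 after cocaine. The male values overlap as deposited and separate on the centred scale.

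At the Fkbp5 upstream region the difference was 0.63 ± 0.17 in males (adjusted p = 0.0149), -0.33 ± 0.15 in diestrus (adjusted p = 0.144) and -0.30 ± 0.15 in proestrus (adjusted p = 0.245). The male minus female difference was 0.94 ± 0.20 (adjusted p = 0.00199), the largest of the members in that comparison, and it stayed past the threshold without any one of the 17 libraries. Without centring it was 0.40 (adjusted p = 0.262), and the male difference was then 0.14 (adjusted p = 0.648). The male call was lost without male control library 2, male cocaine library 1 or male cocaine library 2. Without diestrus cocaine library 1 the diestrus difference was -0.49 ± 0.15 (adjusted p = 0.0147).

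The internal Fkbp5 promoter region chr17:28485147-28486840, its summit 31.4 kb inside the gene and 0.025 kb from a transcript start, followed the same order. Enrichment was 16.95, 9.78 and 12.8 in the male controls and 14.7 and 14.1 after cocaine. The difference was 0.64 ± 0.21 in males (adjusted p = 0.0491), -0.21 ± 0.19 in diestrus and -0.16 ± 0.19 in proestrus, and the male minus female difference was 0.83 ± 0.25 (adjusted p = 0.0209). The male call remained in 6 of 17 fits that left out 1 library and in 3 of 9 other settings. At the 5′ promoter region chr17:28517041-28519469, which also holds a glucocorticoid response element, the differences were 0.19 ± 0.21 in males (adjusted p = 0.612), -0.44 ± 0.19 in diestrus (adjusted p = 0.124; -0.59 ± 0.20, adjusted p = 0.0256, without diestrus cocaine library 1) and -0.16 ± 0.19 in proestrus (adjusted p = 0.656). Low intronic regions were lost, chr17:28454990-28455606 in diestrus and chr17:28406446-28407051 in males, and neither stayed separated at equal peak number.

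**Figure D4:**
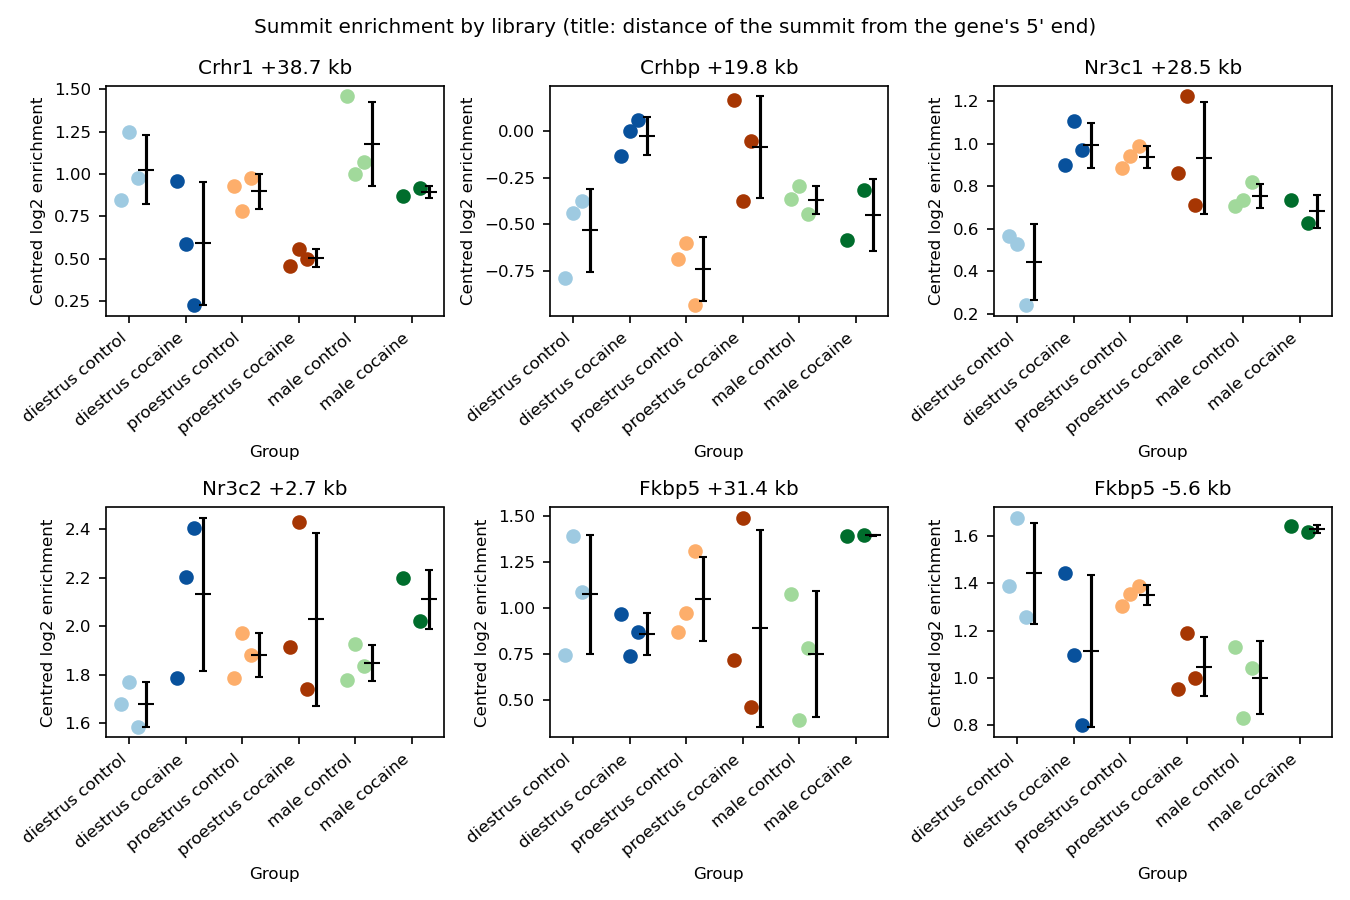
Centred log2 summit enrichment per library (y axis) at 6 member regions, by sex, stage and treatment; points are libraries, bars the mean and SD. The Crhbp downstream region is higher after cocaine in both female stages (0.51 and 0.65) and the Fkbp5 upstream region higher in males (0.63).

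Sgk1, a kinase gene induced within minutes to hours by glucocorticoids, lies on the plus strand of chr10 (21882184-21999903) and had the most regions of the members. None of its 7 tested regions changed with cocaine in any stratum. The 5′ promoter region chr10:21881171-21887197 (median fold 11.9) differed by 0.14 ± 0.15 in diestrus (95% interval -0.15 to 0.43), -0.09 ± 0.15 in proestrus (-0.37 to 0.20) and 0.29 ± 0.16 in males (-0.03 to 0.61). The downstream promoter region chr10:21989191-21997298, at the starts of the short transcripts (median fold 14.4), differed by 0.10 ± 0.14 in diestrus (-0.18 to 0.38), -0.01 ± 0.14 in proestrus (-0.29 to 0.27) and 0.12 ± 0.16 in males (-0.20 to 0.43). A region over the 3′ end that reached within 1 kb of a transcript start, chr10:21997471-22001794, was called in 16 libraries at a median fold of 3.30.

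Calls at Sgk1 differed most in males, where 9 and 13 member regions were called after cocaine against 22 to 25 in the controls, beside the fall in all kept regions called in males given above. Lost in males were chr10:21902095-21902884, the alternative promoter region chr10:21927249-21927760, and the intronic regions at 21930791, 21937220 and 21952173. The first of them had folds of 4.08, 3.86 and 3.62 in the male controls and stayed separated at equal peak number, and the other 4 did not. The intronic region chr10:21983404-21983891 was gained in proestrus, with folds of 2.60, 3.21 and 2.41, and was called in 1 of 3 diestrus cocaine libraries (2.87) and in no control library. It passed the filter only through the proestrus cocaine group.

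Among the controls, 5 member regions differed between males and diestrus females, and none passed the threshold between the stages or between males and proestrus females. Male minus diestrus controls changed 5 of 24 member regions, 4 higher in males and 1 lower (24% of all regions). Male minus proestrus controls changed 0 (14.6% of all regions; 3 of 24 at an unadjusted p under 0.05), and diestrus minus proestrus controls changed 0 (0.350% of all regions; 4 of 24 at an unadjusted p under 0.05). Higher in male than in diestrus controls were the Crh region over the gene (0.67 ± 0.19, adjusted p = 0.0111), the Crhr2 exonic region (0.48 ± 0.17, adjusted p = 0.0378), the Sgk1 intronic region chr10:21921664-21924689 (0.49 ± 0.17, adjusted p = 0.0388) and the Sgk1 downstream region chr10:22009522-22010803 (0.49 ± 0.17, adjusted p = 0.0332). The Fkbp5 upstream region was lower (-0.44 ± 0.15, adjusted p = 0.0305), and without centring this difference was -0.25 (adjusted p = 0.413). These 5 calls remained in 14, 11, 12, 12 and 14 of the 17 fits that left out 1 library, and each loss came from leaving out a male or a diestrus control. In each of these 5 regions the male and diestrus controls did not overlap on the centred scale. The regions were picked by this same comparison, so that adds nothing to its test. The share of higher calls over all regions was 45.1% with centring and 85.3% without it for males against diestrus, 40.1%, 98.4% and, after quantile normalization, 52.7% for males against proestrus, and 69.8% and 98.8% for diestrus against proestrus. The male minus diestrus controls and the cocaine comparisons share their control libraries.

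The glucocorticoid response element was found within 100 bp of the median summit in 4 of the 107 member regions (3.74%) and in 0.513% of all kept regions. The 4 were the Fkbp5 5′ promoter and upstream regions and the Sgk1 regions at 21952173 and 21997471. The AP-1 motif was found in 12 member regions (11.2%) and in 10.6% of all, and the cAMP response element (TGACGTCA) in 0 and in 0.535% of all. Motifs were read on both strands, and none of these 3 contains another. Of RefSeq promoters of the same assembly, 11 matched 6 of the members, and 1 of these, of Sgk1, held the glucocorticoid response element, against 0.475% of 32851 promoters.

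The wider pathway was read from a list of 35 genes: CRH-family and pituitary hormones and their receptors, enzymes that convert glucocorticoids, receptor chaperones, receptor coregulators and genes induced by glucocorticoids. Their windows held 295 regions, of which 82 were called in all libraries. In diestrus 1 of the 82 was higher and 8 were lower after cocaine, in proestrus 1 and 1, in males 5 and 2, and for the mean 4 and 4. These made up 11%, 2.44%, 8.54% and 9.76% of the 82, against 11.2%, 3.38%, 9.60% and 13.9% of all regions. The male minus female difference passed the threshold for 14 of the 82 (17.1%, against 18.4% of all regions), 13 positive and 1 negative, a direction that turned over all regions without centring. Receptor coregulators held most of the diestrus changes, 1 higher and 6 lower of 32. The largest mean difference past the threshold was at an internal promoter of Ncoa1, a steroid receptor coactivator (chr12:4417254-4418401), at -1.12 ± 0.15 (adjusted p = 2.72e-05), with -0.80 in diestrus, -1.67 in proestrus and -0.89 in males. Of the glucocorticoid-induced genes, 0 regions rose and 2 fell of 29 in diestrus, in Zbtb16 and Arrdc2, and 1 rose in males, in Zbtb16. None of Ucn, Ucn2, Ucn3, Pomc, Mc2r and Avpr1b had a kept region at its promoter.

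The promoters whose centred enrichment over the 17 libraries was most like that of each member are given as a description, by Pearson's r among 12097 protein-coding promoters. They were Nap1l3 (0.912), Prps1 and Hace1 for Crh, St3gal5 (0.924), Snx25 and Cpsf6 for Nr3c1, Extl2 (0.960), Slc30a7 (0.960) and Wdr1 (0.949) for Nr3c2, Tmem94 (0.943), Mast3 and Mpv17l2 for the internal Fkbp5 promoter, and Ric1 (0.843), Mindy1 and Prune1 for the downstream Sgk1 promoter. The values share the libraries, their depth and the base composition of promoters.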

How the data were processed

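ATAC-seq was done by the authors on sorted NeuN+ nuclei of the nucleus accumbens, 17 libraries in 6 groups. Reads were adapter-trimmed, aligned to mm10 with BWA-MEM and given to MACS2, one library at a time; featureCounts and DESeq2 are also in the submitters' processing notes, without versions, for read counts not used here. The deposited peak files hold a score, a fold enrichment ratio over the library's background at the summit, a -log10 p-value and a -log10 q-value. None was normalized between libraries by the authors.

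Peaks on the 19 autosomes and X were merged (overlap of 1 bp or more) into 281189 regions, and the 147420 called in at least 2 libraries of one group were kept. Members and lists were chosen with earlier results of these data known. The text names each member's regions within 1 kb of a transcript start, those gained, lost or past a threshold, the 2 most enriched, and the 3 most alike promoters. limma 3.58.1 in R 4.3.3 (trend, robust) was fitted to log2 folds, with no pseudocount, in 36847 regions on 6 group means, and Fisher's exact test ran in scipy 1.17.1. The labels do not say how the pools were separated, so p-values measure the spread between pools of 3 animals. No pair of libraries shared over 0.0728% of its intervals. Depth in reads is not given, and the background pileup was 6.26 to 9.55 fragments. Scripts were tested on simulated data. Alternatives were a 50 kb window, a -log10 q of 5, equal peak numbers, a peak covering 50% of the region, other normalizations, a pseudocount of 1, GC bins, a replicate block, only the compared groups, leaving out each library, and, chosen after seeing the data, the peak nearest the median summit. Same-numbered libraries did not deviate together (correlations -0.293 to 0.195).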

Additional observations from a re-analysis of the deposited data

Results flagged for a closer look

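In 3 member regions the cocaine effect in males differed from that in females by limma's test of the difference itself. At the Crhbp region 6.21 kb past the 3′ end it was -0.66 on the log2 scale, at the internal Fkbp5 promoter region 0.83 and at the Fkbp5 upstream region 0.94. The Crhbp difference remained past the threshold in 6 of 17 fits that left out a library and was lost with GC bins (-0.54, adjusted p = 0.0731) and with GC bins and the replicate block (adjusted p = 0.0773), the internal Fkbp5 one in 14 (lost without male control library 2 or either male cocaine library), and the upstream Fkbp5 one in 17. Both Fkbp5 differences were lost without centring, at 0.28 (adjusted p = 0.490) and 0.40 (adjusted p = 0.262). The male cocaine group holds 2 libraries, and those had the fewest regions called.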

How the results depend on the processing

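No called difference of a named region changed sign, though in males the 2 higher member regions gave way to 12 lower ones without centring. Over results for single regions, 308 kept their side of the threshold and 108 lost it, and of the counts 239 stayed and 91 did not. A count stayed if it was within 1.5 times. A difference in regions called per library stayed if it moved by less than the pooled SD. The cause of these moves was not tested unless named.

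Gained and lost counts: a 50 kb window gave 25 male losses. A -log10 q of 5 gave 1 diestrus gain, 0 diestrus losses, 0 male gains and 6 male losses. Equal peak numbers gave 0 diestrus and 2 male losses, and differences in regions called of 0.333 in diestrus and 0.5 in males. A peak covering 50% of the region gave 2 diestrus gains, 2 proestrus gains and 3 proestrus losses. Leaving out a library gave 0 to 1 diestrus gains, 2 to 7 diestrus losses, 4 to 10 proestrus gains, 1 to 2 proestrus losses, 0 to 2 male gains and 13 to 26 male losses (26 without male control library 2).

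Counts of changed height: the 50 kb window gave 5 in diestrus, 2 in proestrus, 8 for the mean, 9 for male minus diestrus controls, 3 for male minus proestrus controls and 7 for the male minus female difference. No centring gave 0 in diestrus and 12 each in males, in male minus proestrus controls and in the male minus female difference. Quantile normalization gave 4 in diestrus and 1 in males. GC bins, a pseudocount of 1 and the peak nearest the median summit each gave 1 in males. Regions called in the groups compared gave 1 in diestrus, 2 in proestrus and 4 in male minus proestrus controls. Only the groups compared gave 0 in diestrus, 2 in diestrus minus proestrus and 2 in male minus proestrus controls. Leaving out a library gave 0 to 8 in diestrus, 0 to 1 in proestrus, 0 to 2 in males, 1 to 4 for the mean, 0 to 6 in male minus diestrus controls, 1 to 5 for the male minus female difference, and 0 to 0 for the diestrus minus proestrus controls, male minus proestrus controls, diestrus minus proestrus effect and Fisher comparisons.

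The replicate block changed no count of calls (2 in diestrus, 1 in proestrus, 2 in males, consensus correlation -0.000778), and with GC bins added the replicate block gave 0 in proestrus and 1 in males. The numbers do not pair the libraries. Where leaving out a library left males 1 cocaine library, it was assumed to vary like the other groups. Summit pileups of 19 to 306 fragments limit the precision of the folds, and regions missed by a library may lie just under its calling threshold.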
